A study of Canis lupus familiaris with 5 samples.

Results

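The interval from 31.6 to 32.0 Mb on dog chromosome 15 (CanFam3.1) was chosen because ENSCAFG00000006138, one of the gene models that differed most between fibroblasts and induced pluripotent stem cells (iPSCs), lies within it. All gene models that start and end inside the interval were taken as members. There were 7 of them, of 32220 in the whole count table and 881 on the chromosome. The choice rested on the levels of ENSCAFG00000006138 in fibroblasts and iPSCs, so values of that contrast are given below as a description without a test, for all members.

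The RNA came from cells of 1 adult dog, named K9, and was sequenced as 5 libraries in 3 groups. The fibroblast library was from ear skin fibroblasts at passage 1, before any vector was given. The library of induced neural stem cell-like cells (iNSLCs) was at passage 2. These are colony-forming cells that appeared in a medium termed NSM after the fibroblasts were electroporated with the EP-B set of episomal vectors, which carry OCT4, SOX2, KLF4, L-MYC, LIN28, KLF2, NANOG, GLIS1, KDM4D, a dominant-negative p53 and EGFP, and were plated on mouse embryonic feeder cells. The iPSC group had 3 libraries, from clones 1, 2 and 3 at passages 9, 8 and 8, obtained by moving such cells to an embryonic stem cell medium (ESM). The clones were picked from the cells of the same dog, so the spread between them is not a spread between animals, and passage went with group in every library. Each library held from 11699186 (iNSLC) to 34317091 (iPSC 3) counts. The files do not pair gene IDs with symbols, so that marker genes of fibroblasts, neural stem cells and pluripotent cells were not analysed here, and the labelled cell types were not checked against them.

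Small leucine-rich proteoglycans are secreted proteins of the extracellular matrix. Decorin and lumican, made by fibroblasts of skin and other connective tissues, bind collagen and shape its fibrils, keratocan is best known from the cornea and epiphycan from cartilage. Their genes lie close together in mammals. In RefSeq's annotation of another dog assembly, UU_Cfam_GSD_1.0, the genes EPYC, KERA, LUM and DCN follow each other in this order on chromosome 15 with no other entry of the table between them. That table holds an Ensembl ID in 0 of 43286 rows and matched 0 of the 32220 IDs of the count table. It was therefore not verified that the interval is this proteoglycan locus, and no member is given a symbol here. The members are called by their IDs.

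Of the 7 members, 6 lie on the minus strand and 1 on the plus strand, and no member overlaps another. The longest is ENSCAFG00000006129 (31670414 to 31735104), with 8 exons and 2174 bp of exons. It is followed by ENSCAFG00000006134 (31750744 to 31758598), with 3 exons and 2382 bp. Next comes ENSCAFG00000006138 (31791505 to 31800707), again with 3 exons, of 3612 bp in all. ENSCAFG00000006142 (31834014 to 31877417) has 8 exons over 43404 bp of the genome, although these exons add up to 1359 bp only. The spaces between these 4 models are 15639, 32906 and 33306 bp, so the 2 abundant models described below are separated by 33306 bp. The other 3 members are short. ENSCAFG00000029995 (31662127 to 31662695) and ENSCAFG00000033586 (31976376 to 31978111) have 2 exons each, and ENSCAFG00000006147 (31994793 to 31995275), on the plus strand, has 1.

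**Figure D1:**
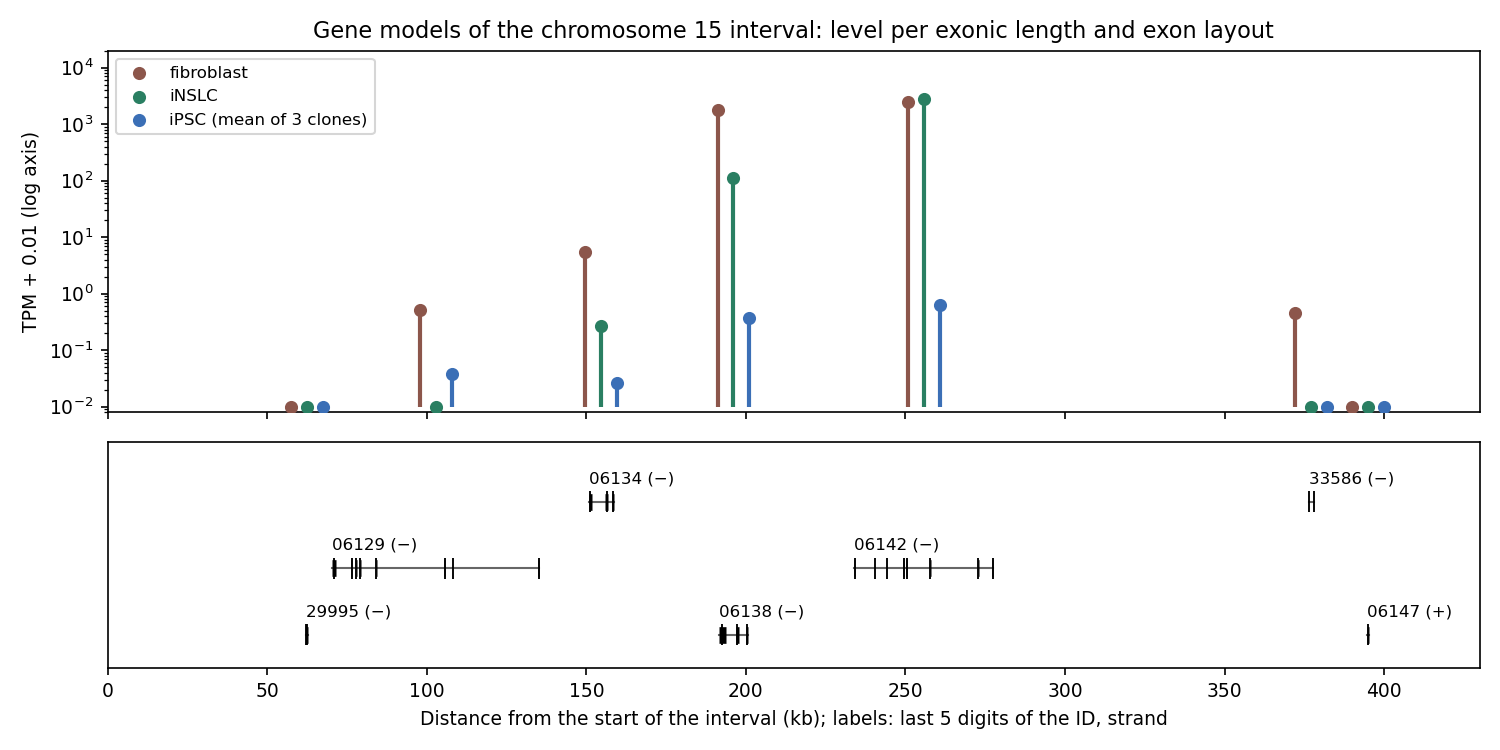
Top: level of each member per exonic length, as TPM (plus 0.01, log axis), in the fibroblast library, the iNSLC library and the mean of the 3 iPSC clones; the 3 stems of a model are drawn side by side around its centre. Bottom: exons (black) and introns (grey) of the 7 members by distance from the start of the interval, with short exons widened to a line. The 2 tallest stems in fibroblasts belong to ENSCAFG00000006138 (1796 TPM) and ENSCAFG00000006142 (2500 TPM), and only the latter is as tall in iNSLCs (2836 TPM).

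Nearly all reads of the interval fell on 2 neighbouring models. In fibroblasts, ENSCAFG00000006138 took 65.5% of the counts of the interval and ENSCAFG00000006142 took 34.3%. In iNSLCs the order was turned, with 9.37% (exact 95% interval 9.04 to 9.72%) for ENSCAFG00000006138 and 90.6% (90.3 to 90.9%) for ENSCAFG00000006142. The whole interval held 170298 counts, or 0.512% of the library, in fibroblasts and 28172 counts, or 0.241%, in iNSLCs. In the iPSC clones it held 34, 40 and 32 counts. All 3 clones were thus close to empty, and the interval's share of their counts was between 9.32e-05% and 0.00020%. These intervals cover counting error only, because each was computed from the counts of its own library without a spread between libraries. Reads without molecular identifiers are not independent molecules, so the intervals can be too narrow for counting error too. In bulk samples, fewer cells that use a gene and less RNA per cell cannot be told apart, which holds for every difference below.

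ENSCAFG00000006138 had 111604 counts in fibroblasts, 2641 in iNSLCs and 14, 26 and 22 in iPSC clones 1, 2 and 3. As CPM, counts relative to the library total scaled by TMM, these were 4356 in fibroblasts, 230 in iNSLCs and 0.433, 1.16 and 0.594 in the clones. The libraries therefore fell into 3 separate levels, with the fibroblasts highest, the iNSLCs between and all clones lowest. The fibroblast level was 18.9 times that of iNSLCs (counting interval 18.2 to 19.7), and the iNSLC level was 341 times that of the 3 clones summed (counting interval 266 to 445). By level per exonic length, the model ranked 75 of 32220 in fibroblasts and 1315 in iNSLCs, and between 15325 and 17111 in the clones. The fitted log2 fold change from iNSLCs to iPSCs was -8.34 (SE 0.517), given without a p as the low level in iPSCs led to the choice of the interval.

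ENSCAFG00000006142 had 58451 counts in fibroblasts and 25527 in iNSLCs, against 18, 14 and 6 in the clones. With TMM scaling, these were 2282 CPM (fibroblasts), 2226 CPM (iNSLCs) and 0.556, 0.623 and 0.162 CPM (clones). Fibroblasts and iNSLCs were thus at nearly the same level, and the clones far below both. The ratio of fibroblasts to iNSLCs was 1.03 (counting interval 1.01 to 1.04), but its direction depended on the scaling, since the iNSLC library was the higher by 0.16 on the log2 scale under upper-quartile scaling and by 0.31 when library totals alone were used. By level per exonic length the model ranked 46 of 32220 in fibroblasts and 41 in iNSLCs. In the clones its rank was between 14350 and 17638.

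**Figure D2:**
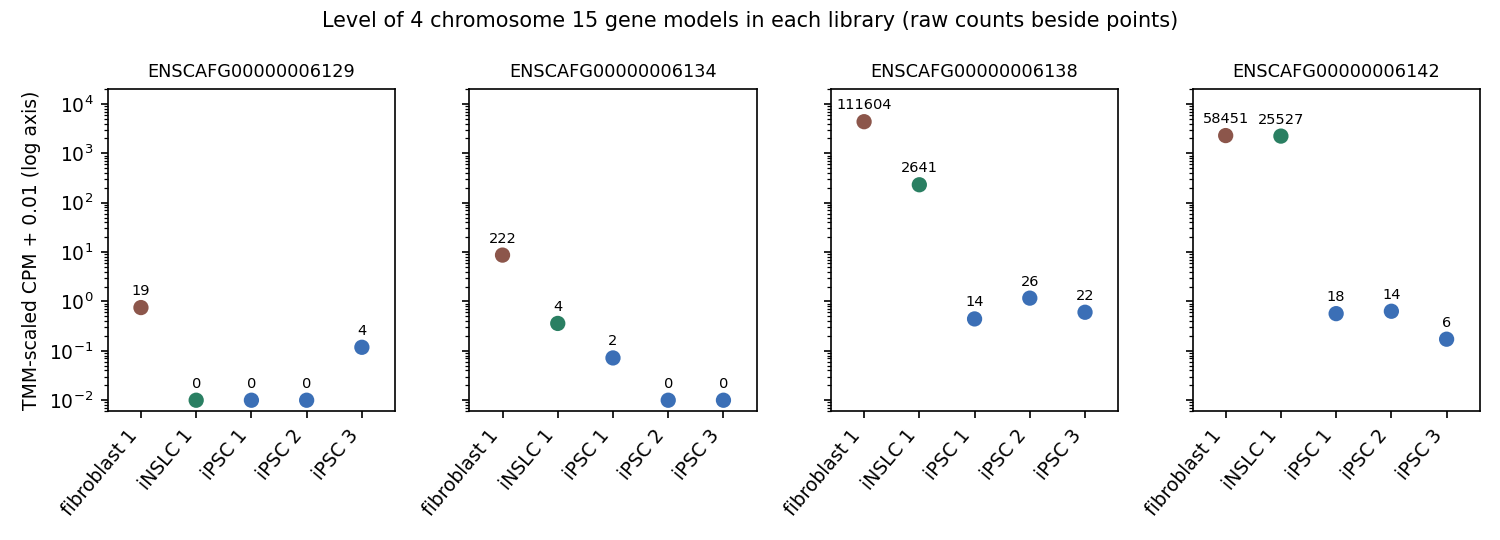
Level of the 4 members with more than 3 counts in any library, as TMM-scaled CPM (0.01 added, log axis); each point is 1 library and carries its raw count. ENSCAFG00000006142 stays at 2226 CPM in iNSLCs, where ENSCAFG00000006138 lies at 230 CPM and ENSCAFG00000006134 at 0.349 CPM, and all 4 members lie lower in every iPSC clone than in fibroblasts.

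The comparison of iPSCs with iNSLCs asked what the step from the neural stem cell-like stage to pluripotency changed at the interval. It used the 3 clones that also entered the choice of the interval, but not the fibroblast library. ENSCAFG00000006142 fell from 2226 CPM to 0.447 ± 0.249 CPM (SD, n = 3), a log2 fold change of -12.32 (SE 0.657, edgeR adjusted p = 0.00144, lower in 3 of 3 clones). Among all 17479 models tested, whose median log2 fold change was 0.20, only 3 had a lower fitted log2 fold change. Its unadjusted p was the 13th smallest. Models called lower in iPSCs made up 7.71% of those tested. Of the members, 4 passed the filter on low counts, but only ENSCAFG00000006138 and ENSCAFG00000006142 did so when the fibroblast library was left out of the filter. Without iPSC 3 the adjusted p of ENSCAFG00000006142 was 0.0585 with edgeR, the smallest of all models in a fit that called 0 (4863 had an unadjusted p under 0.05), while its log2 fold change was -11.95. On the same libraries the adjusted p was 0.0246 with limma-voom, which called 381 models lower, and 2.12e-130 with DESeq2, which called 1456 lower.

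ENSCAFG00000006134 was a weakly expressed fibroblast model. It had 222 counts (8.67 CPM) in fibroblasts, 4 counts (0.349 CPM) in iNSLCs, 2 counts in iPSC 1 and 0 in iPSC 2 and iPSC 3. The fibroblast level was 24.8 times that of iNSLCs, with a counting interval from 9.70 to 91.2, which includes the 18.9 of its neighbour ENSCAFG00000006138. Against the clones summed, with 2 counts, the ratio was 398 (counting interval 110 to 3286), or 265 with the clones set to a floor of 3 counts in all. This model too entered the test of iPSCs against iNSLCs only through its fibroblast counts. With 4 counts in iNSLCs and 2 in all clones together, the model was not called (edgeR adjusted p = 0.134). Because of these low counts and this route through the filter, the test cannot decide whether the levels differ. The ratio of iNSLCs to the clones summed had a counting interval from 4.43 to 132, which leaves out equal levels. That interval covers the error of the 2 clone counts only. The 2 models on this side of the pair, at 24.8 and 18.9, thus had ratios of fibroblasts to iNSLCs that could not be told apart at this depth, and that of ENSCAFG00000006142 was outside both intervals.

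The remaining members were at or near 0. ENSCAFG00000006129 had 19 counts in fibroblasts (0.742 CPM), 0 in iNSLCs, iPSC 1 and iPSC 2, and 4 in iPSC 3. It passed the filter only through its fibroblast counts. Between iPSCs and iNSLCs no direction can be read, since the 4 counts of 1 clone stand against 0 counts in iNSLCs. ENSCAFG00000033586 had 2 counts in fibroblasts and 0 elsewhere, and ENSCAFG00000029995 and ENSCAFG00000006147 had 0 in all 5 libraries, which allows up to 0.0901 CPM in fibroblasts and 0.256 CPM in iNSLCs on unscaled library totals. These 2 are also the members nearest to the ends of the interval. Just outside, ENSCAFG00000035246, which crosses the start, had 1 count in iPSC 1, and ENSCAFG00000006152 after the end had 0.

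In iPSCs, 8 member values were above 0 and 8 of these were even numbers. In the whole table, even values made up 74.0% of counts from 1 to 10 in iNSLCs, 64.0% in fibroblasts and 59.6% to 61.6% in the clones. Counting each end of a fragment separately would give more even than odd numbers. The number of fragments behind the 14, 26 and 22 counts of ENSCAFG00000006138 can thus be lower. As counted, the level of this model was 0.433 CPM (counting interval 0.237 to 0.726) in iPSC 1 and 1.16 CPM (0.756 to 1.70) in iPSC 2, which do not overlap. If each fragment was counted as a pair, the intervals are 0.174 to 0.892 CPM and 0.616 to 1.98 CPM and overlap. Overlap of intervals is no test, and a difference between clones was not tested. For ENSCAFG00000006142, the interval of iPSC 3 as counted was 0.0595 to 0.353 CPM. Only its upper end overlapped those of iPSC 1 (0.330 to 0.879 CPM) and iPSC 2 (0.341 to 1.05 CPM), and these differences were not tested either. Reads of mouse feeder cells, if any were taken along, could not be set apart from dog reads in a count table, and their part in the residual counts was not tested.

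The ratio of both abundant models within a library does not depend on any scaling between libraries. There were 1.91 counts of ENSCAFG00000006138 for each count of ENSCAFG00000006142 in fibroblasts (exact 95% interval 1.89 to 1.93) and 0.103 in iNSLCs (0.0994 to 0.108). The ratio was therefore 18.5 times lower in iNSLCs, or 4.21 on the log2 scale. Per exonic length, ENSCAFG00000006142 was the more abundant of the pair in both libraries, with a ratio of 0.718 in fibroblasts and 0.0389 in iNSLCs. In the clones the count ratio was 0.778 (0.358 to 1.66), 1.86 (0.935 to 3.85) and 3.67 (1.44 to 11.1). All of these intervals lie above that of iNSLCs, and those of iPSC 2 and iPSC 3 include the value of fibroblasts. Summed over the clones, 62 and 38 counts gave a ratio of 1.63 (1.07 to 2.51), an interval that leaves out the spread between clones. All intervals of the clones would be wider if each fragment was counted as a pair.

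**Figure D3:**
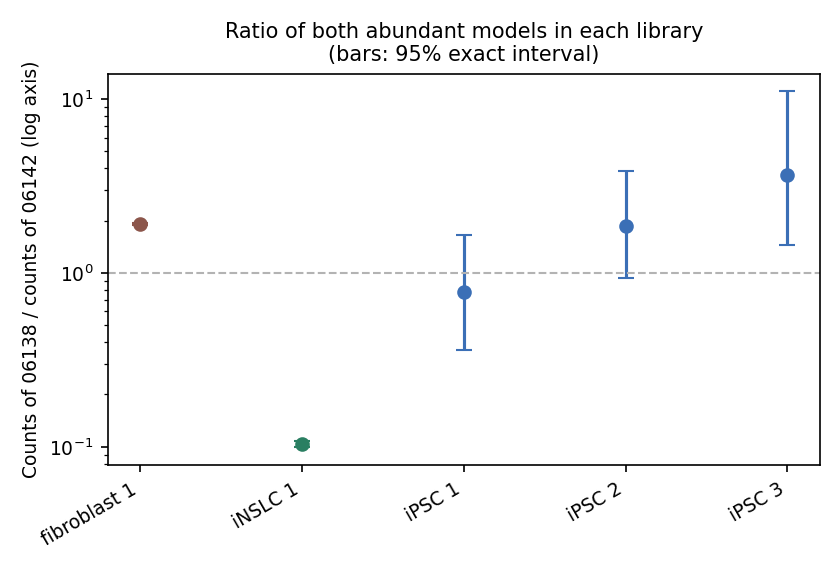
Counts of ENSCAFG00000006138 divided by counts of ENSCAFG00000006142 in each of the 5 libraries, on a log axis; bars are exact 95% intervals that cover counting error only, and the dashed line marks equal counts. The iNSLC library (0.103) lies below all others, while the clones, with 6 to 26 counts for each model, have wide intervals.

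The comparison of iNSLCs with fibroblasts, about the first step of reprogramming, rests on 1 library each and has no replicate check. At a minimum of 10 CPM in the higher library, 10237 models could be compared, of which 5.69% were at least 4-fold lower in iNSLCs. Of the 2 members above that minimum, ENSCAFG00000006138 was among them and ENSCAFG00000006142 was not. The lower one fell by 4.24 on the log2 scale, and its neighbour by 0.04. The median of the 9147 models with at least 10 CPM in fibroblasts was -0.34, and 0.94% of them had a lower value than ENSCAFG00000006138, against 64.4% for ENSCAFG00000006142. Among the 151 models with at least 1000 CPM in fibroblasts, a minimum chosen after the values were seen, the median was -1.16. There ENSCAFG00000006138 was the 11th from the lowest and ENSCAFG00000006142 the 119th. The fibroblast level that entered the choice of the interval is part of each of these ratios, so the ranks are a description without a test, and the sign of the ratio of ENSCAFG00000006142 depended on the scaling.

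**Figure D4:**
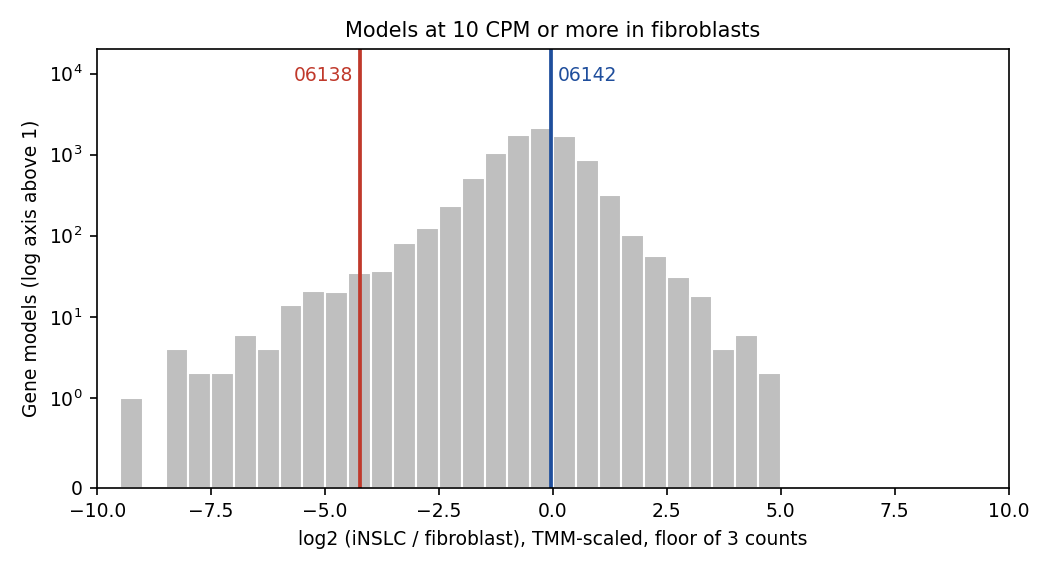
Distribution of log2 ratios of iNSLCs to fibroblasts (TMM-scaled, with libraries under 3 counts set to 3) over the 9147 gene models at 10 CPM or more in fibroblasts; the vertical axis counts models and is logarithmic above 1. The lines mark ENSCAFG00000006138 at -4.24, in the lower tail, and ENSCAFG00000006142 at -0.04, near the centre.

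The gap between the pair can be set beside that of other neighbours. There were 5731 pairs of neighbouring models with at least 10 CPM in fibroblasts, at most 100 kb apart and with no other such model between them. Their log2 ratios of iNSLCs to fibroblasts differed by a median of 0.75, and in 98 pairs (1.71%) by at least the 4.21 of the pair described here. Restricted to pairs on the same strand, it was 54 of 2758 (1.96%). The fibroblast level of ENSCAFG00000006138 led to the choice of the interval, so these shares are a description of the table from which nothing is read for the pair.

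Against fibroblasts, the iPSC level of ENSCAFG00000006138 fell by 12.67 on the log2 scale (SD 0.724 over 3 clones) and that of ENSCAFG00000006142 fell by 12.54 (SD 1.08), and these falls differed by less than the spread between clones. In this contrast 14.3% of 17479 models tested were called lower in iPSCs, from which nothing is read for the members, since the contrast led to the choice of the interval. Of the way from the level of fibroblasts to the mean of the clones, in log2(CPM + 1), the iNSLC library had passed 0.335% for ENSCAFG00000006142, 37.4% for ENSCAFG00000006138 and 87.6% for ENSCAFG00000006134. The value of ENSCAFG00000006142 changed sign with the scaling, to -0.025% with DESeq2 size factors, -1.51% with upper-quartile factors and -3.06% with library totals alone. The median over 1402 models called lower in iPSCs by at least 4-fold, with at least 10 CPM in fibroblasts, was 42.8%, with quartiles of 20.8 and 64.6%. ENSCAFG00000006138 thus lay between these quartiles and ENSCAFG00000006142 below the lower one, and 10.4% of the models had a smaller value with TMM scaling. These positions use the levels that led to the choice and are a description. The value for ENSCAFG00000006134, with 8.67 CPM in fibroblasts, is raised by the added 1 CPM. This addition shrinks the distance from 0.349 CPM in iNSLCs to a mean of 0.0206 CPM in the clones. With a floor of 3 counts and no added CPM, its log2 ratios to fibroblasts were -4.63 for iNSLCs and -6.44 for the clones.

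Models around the interval did not share its levels. Within 1 Mb on either side lay 12 models, of which 8 had 0 counts in every library and 2 had at most 2 counts. The other 2 were ENSCAFG00000006121 before the interval and ENSCAFG00000006153 (32647472 to 32647912) after it. ENSCAFG00000006121 (30547015 to 30674528, reaching beyond the 1 Mb) had a level of 132 CPM in iNSLCs, below the 210 CPM of fibroblasts. It reached 433 ± 129 CPM (SD, n = 3) in iPSCs, where every clone was above both other libraries. ENSCAFG00000006153 was highest in iNSLCs, at 144 CPM, against 16.6 CPM in fibroblasts and a mean of 32.2 ± 4.09 CPM (SD, n = 3) over the clones. The members from ENSCAFG00000006129 to ENSCAFG00000006142, all lower in iPSCs than in fibroblasts, thus stood between models with 0 to 2 counts. Beyond these, the nearest expressed models on both sides were not lower in iPSCs than in fibroblasts.

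Over the whole table, the models most like ENSCAFG00000006138 were sought by the Euclidean distance of centred log2(CPM + 1) profiles over the 5 libraries, among 11095 others with at least 10 CPM in some library. The nearest was ENSCAFG00000002307 (chromosome 1, 98881533 to 98905712) at a distance of 1.53. Its fibroblast level was 2170 CPM, its iNSLC level 286 CPM and its levels in the clones 0.649, 1.82 and 2.46 CPM. The next was ENSCAFG00000017550 (chromosome 7, 43493845 to 43496166) at 2.44, which went from 544 CPM in fibroblasts to 62.3 CPM in iNSLCs and to between 0.185 and 0.578 CPM in the clones. Both had a step at iNSLCs and levels of at most 2.46 CPM in the clones. They were picked for a like profile over these 5 libraries, so this likeness is a description. ENSCAFG00000006142, its neighbour on the chromosome, was at a distance of 3.38 and ranked 16 of 11095. It was thus also among the nearer models, although its level in iNSLCs was near that of fibroblasts.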

How the data were processed

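RNA of 5 libraries was sequenced. The authors deposited raw counts of reads per gene model, with exon coordinates and exonic lengths. Per the submitters' processing notes, they used STAR 2.5.3a, Trim Galore 0.4.0 and featureCounts 1.5.2 with CanFam3.1. Strand and multi-mapping settings: not given in the sources used here. Counts were the same in the series table and the tables per library. Members, lists and tests were chosen with earlier results of these data known. None of the marker lists could be matched to IDs.

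For iPSCs against iNSLCs, all models that passed filterByExpr entered a quasi-likelihood fit of 3 groups in edgeR 4.0.16 (R 4.3.3) with TMM scaling, and p-values were adjusted by Benjamini-Hochberg over these models (threshold 0.05). Only the 3 clones were replicates (2 residual degrees of freedom), and the fit moderated each model's spread with that of all models. This spread was taken to hold for the single fibroblast and iNSLC libraries too. The p-values therefore rest on clones of 1 dog, not on animals. Alternatives used DESeq2 1.42.0 and limma 3.58.1. CPM used TMM factors from 0.770 (fibroblast) to 1.12 (iPSC 2). TPM was computed from counts and exonic lengths. Ratios carry exact Poisson intervals of the lower count, and shares carry Clopper-Pearson intervals, at 95%. By the naming rule, every member, expressed models within 1 Mb and the 2 models most like ENSCAFG00000006138 are named.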

Additional observations from a re-analysis of the deposited data

How the results depend on the processing

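The call of ENSCAFG00000006142 as lower in iPSCs than in iNSLCs held under 12 of 13 alternatives, with log2 fold changes from -12.67 to -11.93 and adjusted p from 2.12e-130 to 0.0585. It was lost without iPSC 3 with edgeR. The 13 include DESeq2 and limma-voom without iPSC 3, which were chosen after seeing the data. The smallest adjusted p came from that DESeq2 fit. ENSCAFG00000006138 ranged from -8.84 to -8.09. Leaving out 1 clone, the number of members called lower, without ENSCAFG00000006138 whose level led to the choice, ranged from 0 to 1, that of all models called lower from 0 to 2604 and that of models called higher from 0 to 1555 (1348 and 613 with all clones). Models called higher numbered 1551 with DESeq2, 279 with limma-voom and 926 with no filter. Without iPSC 3, tests chosen after seeing the data called 1456 lower and 956 higher with DESeq2, and 381 and 25 with limma-voom. ENSCAFG00000006129, not called in any setting, had 0 counts in iNSLCs, so that its fitted values of 3.23 with edgeR, -0.28 with limma-voom and -1.31 with limma-voom without iPSC 3 are no folds and give no direction. For iNSLCs against fibroblasts, the log2 ratio of ENSCAFG00000006142 was -0.04 and changed sign under other scalings, to 0.0026 (DESeq2 size factors), 0.16 (upper quartile) and 0.31 (library totals alone). Its position on the way from fibroblasts to iPSCs, tried after seeing the data, then went from 0.335% to -0.025%, -1.51% and -3.06%. That of the summed interval was -1.44, and -1.40, -1.24 and -1.09 in the same order. Without the mitochondrial gene models in the total, the interval's share was 0.535% in fibroblasts and 0.247% in iNSLCs. Counts limit the iPSC values, where no member passed 26 counts in a clone. No paired analysis was possible because the groups compared share fewer than 2 replicate numbers.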
